A study of Homo sapiens with 64 samples.

Results

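The comparison described here is of time in culture in unlabeled cells labelled as the colorectal cancer line DLD1. DLD1 is used here as the name the labels give, since the genes that set that line apart were not at DLD1 levels in these libraries. The comparison sets the 4 libraries of the later time point, labelled day 5 and called day 6 in the study's design text, against the 4 libraries of day 1. These 8 libraries were chosen by the group names in their labels and are 8 of the 64 samples of the series. The unlabeled cells were handled as controls for a dilution experiment with CFSE, a dye that is shared out between daughter cells at each division, and received DMSO in place of the dye. All cells grew as nonadherent spheroids on ultra-low attachment plates, in serum-free medium with EGF and bFGF and at low oxygen. Neither group was sorted, so each library is the RNA of a whole culture of a single line, measured by RNA-seq and counted per gene. The study's methods call the replicates biological. The labels do not say which cultures they came from, so the p-values measure only the spread between these libraries.

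A tumour line moved from a dish into serum-free spheroid medium meets new conditions together: loss of a flat substrate, cell contacts on all sides, defined growth factors and, as spheroids grow, a gradient of oxygen and nutrients. Colorectal cancer lines carry lesions in the Wnt pathway, in which beta-catenin drives genes of the intestinal crypt, and respond in part to TGF-beta and bone morphogenetic proteins (BMPs), which in normal gut favour differentiation. Cell number in such cultures depends on the cycle genes of DNA replication (S phase) and mitosis (G2/M), which E2F and the DREAM complex control.

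The identity of the cells was examined before any comparison. All 8 unlabeled libraries carried the genes of colorectal epithelium: 11 of 14 markers were above 1 CPM (counts per 1000000 counts on genes, with library totals scaled by the TMM method) in each of the 8 libraries. Markers of other cell types were near 0, with 4 of 10 fibroblast markers and 6 of 10 immune markers at 0 in all 8 libraries. Their summed levels were 4.16 to 6.93 CPM for fibroblasts, 8.05 to 17.2 CPM for immune cells and 9.58 to 17.4 CPM for endothelium, against 7470 to 10100 CPM for epithelium. The label of the line was a different matter. The 8 libraries labelled DLD1 correlated with the mean of the sorted HCT15 libraries of the series at r = 0.971 to 0.993 and with the mean of the sorted DLD1 libraries at r = 0.93 to 0.955, across genes. Of 34 genes at least 16-fold higher in sorted DLD1 than in sorted HCT15 cells, 0 were on the DLD1 side in any unlabeled library, and of 28 genes at least 16-fold higher in sorted HCT15 cells, 27 to 28 were on the HCT15 side. CFTR, a chloride channel, was at 122 to 248 CPM in sorted DLD1 libraries, at 0.174 to 0.615 CPM in sorted HCT15 libraries and at 0.125 to 0.55 CPM in the unlabeled libraries. HLTF, a DNA helicase, was at 0.33 to 1.32 CPM in sorted DLD1, 55.3 to 92.9 CPM in sorted HCT15 and 43 to 86.3 CPM in the unlabeled libraries. The 8 CFSE-labeled libraries of the same experiment were also nearer to sorted HCT15. DLD1 and HCT15 are known to derive from the same tumour, and here the libraries keep their label. Both days were on the same side, so the comparison of days was within cells of 1 profile.

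Day 1 replicate 4 did not resemble the other day 1 libraries. It correlated with day 1 replicates 1 to 3 at r = 0.958 to 0.968 and with later replicates 3 and 4 at r = 0.992, while day 1 replicates 1 to 3 correlated among themselves at 0.988 to 0.994. On the first principal component of the 8 libraries, which held 67.6% of the variance, day 1 replicates 1 to 3 were at -61.6, -56.4 and -49.4, day 1 replicate 4 was at 17.1, and the later replicates were at 60.5, 43.6, 33.3 and 12.8. Thus the library labelled day 1 replicate 4 was inside the range of the later day and far from its own group. Over the 5958 genes called with it left out, it was nearer to the later mean in 5196 (87.2%), with a median position of 0.86 on a scale where 0 is the mean of the other day 1 libraries and 1 the mean of the later day. The counts are therefore given with all 8 libraries and with the 7 that remain without it, and the fold change of a named gene is that of the 7 unless another fit is named. The 8 libraries held 13757558 to 16394969 counts on genes. The share of reads outside annotated genes was 10.7 to 13.6% in day 1 replicates 1 to 3, 8.96% in day 1 replicate 4 and 5.19 to 8.35% in the later libraries, so this share moved with the day. Reads mapped to several places were left out of it.

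**Figure D1:**
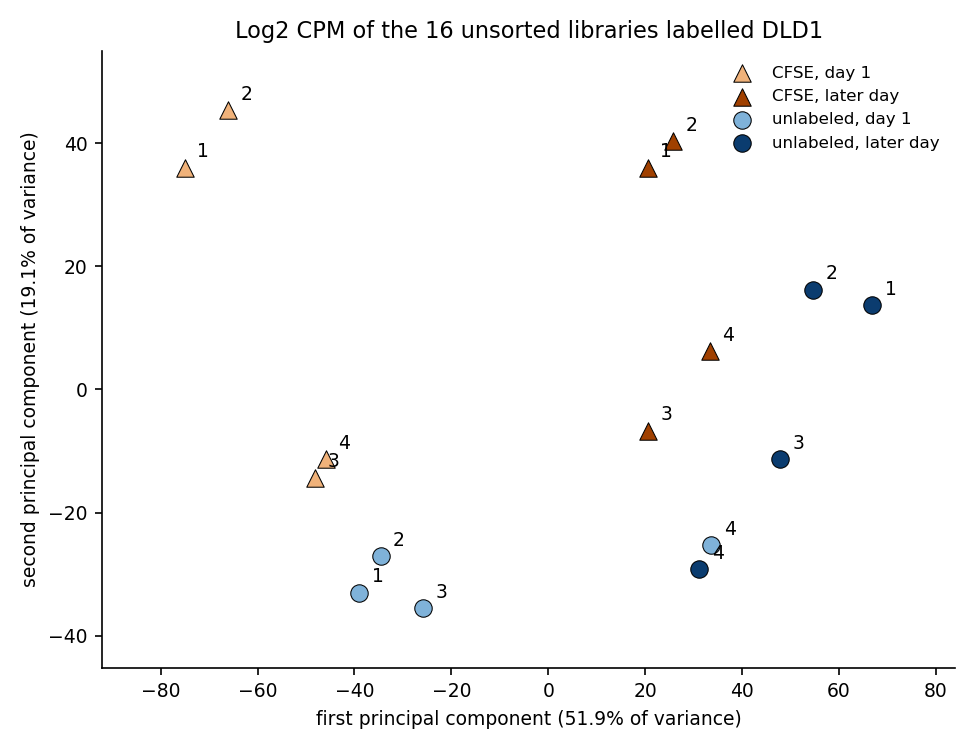
First and second principal components of log2 CPM over the 16 unsorted libraries labelled DLD1, with 1 point per library and the replicate number beside it (circles unlabeled, triangles CFSE-labeled, light colours day 1, dark colours later day). The first axis holds 51.9% of the variance and the second 19.1%; unlabeled day 1 replicate 4 lies beside later replicate 4 and away from day 1 replicates 1 to 3.

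Between the days, edgeR's quasi-likelihood test called 744 of 13873 genes with all 8 libraries at a Benjamini-Hochberg adjusted p under 0.05, 5.36% of those tested. Of these 119 rose (0.858%) and 625 fell (4.51%). Without day 1 replicate 4, 5958 of 14101 genes were called (42.3%), 2992 higher (21.2%) and 2966 lower (21%) at the later day. Without TMM scaling more of the calls were decreases, 65 higher and 814 lower in the 8 libraries and 2293 higher and 3337 lower in the 7. All 744 genes of the first fit were called in the second as well, in the same direction. In the 7 libraries, 759 genes were higher and 1261 lower by at least 1 on the log2 scale, and the median over all genes tested was 0.01. The count from 8 libraries rested on single libraries: it was 0 without any one of day 1 replicates 1, 2 or 3 or later replicates 1, 2 or 3 (with 3116 to 4134 genes at an unadjusted p under 0.05), and 1798 without later replicate 4. DESeq2 called 3043 genes in the 8 libraries, 1220 higher and 1823 lower. The count from 7 libraries stayed within 3441 to 6703 when a further library was left out, and fell below by more than 1.5 times for 2 of them, to 3441 without day 1 replicate 1 and 3632 without replicate 2. Adjusted p-values below come from edgeR's test, with "8 libraries" or "7 libraries" naming the fit, and a gene is said to have risen or fallen where it passed in the 7.

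The cell cycle genes gave the broadest decrease among the lists. With 7 libraries 38 of 42 S-phase genes fell and 0 rose (median log2 fold change -0.81), and 39 of 54 G2/M genes fell and 0 rose (median -0.52). With 8 libraries 6 S-phase and 4 G2/M genes fell, with medians of -0.65 and -0.41. In bulk libraries fewer cycling cells and less of each RNA per cell cannot be told apart. CDC45, a subunit of the active replicative helicase (ENSG00000093009, chr22:19466980-19508135 on hg19, plus strand), was at 43.8, 44.8, 40.2 and 12.9 CPM in day 1 replicates 1 to 4 and at 10.5, 16.6, 13 and 14.3 CPM in the later replicates. Replicate 4 of day 1 lay within the later range, and the other 3 were above every later library. The log2 fold change was -1.7 ± 0.15 (SE) with 7 libraries (adjusted p = 0.000105) and -1.43 with 8 (adjusted p = 0.0471).

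CDC6, which licenses replication origins, and NASP, a histone chaperone, fell by 1.19 and 1.02 on the log2 scale (adjusted p = 0.000294 and 0.000463 with 7 libraries, 0.0527 and 0.046 with 8). PCNA, the clamp of the replicative polymerases, was at 328, 331, 330 and 203 CPM on day 1 and at 202, 277, 215 and 209 CPM later, a log2 fold change of -0.6 ± 0.12 (adjusted p = 0.00422 with 7 libraries and 0.108 with 8). Among the G2/M genes SMC4, a condensin subunit, was at 243, 268, 274 and 153 CPM on day 1 and 128, 140, 136 and 126 CPM later. All 4 day 1 libraries were above all 4 later ones, and SMC4 passed in both fits (-1.03 ± 0.097, adjusted p = 0.000126 with 7 libraries; -0.87, adjusted p = 0.046 with 8). HJURP, the chaperone of the centromeric histone, fell by 1.24 (adjusted p = 0.000443 with 7 libraries and 0.0471 with 8) and the Polycomb methyltransferase gene EZH2 by 1.1 (adjusted p = 0.00013 and 0.046). CDK1, the mitotic kinase, did not pass (-0.26 ± 0.17, adjusted p = 0.236). MKI67, which encodes the proliferation antigen Ki-67, was at 700, 766, 771 and 527 CPM on day 1 and at 94.9, 151, 430 and 539 CPM later, so that the decrease was carried by later replicates 1 and 2 (log2 fold change -1.34 ± 0.48, adjusted p = 0.0466 with 7 libraries and 0.0944 with 8).

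Genes that supply a dividing cell were lower too. Of 30 genes of ribosome biogenesis 18 fell and 0 rose (7 libraries, median -0.49), and of 25 genes of nucleotide synthesis 12 fell and 0 rose (median -0.38). With 8 libraries these counts were 0 and 2. LYAR and GNL3, both nucleolar proteins, fell by 1 and 0.68 on the log2 scale, and CTPS1, which makes CTP, fell by 1.17 ± 0.15 (adjusted p = 0.000434). With 8 libraries LYAR and GNL3 were at adjusted p = 0.0544 and 0.0558 and CTPS1 at 0.0471. The nucleotide count was 6 without day 1 replicate 1 and 7 without replicate 2. MYC itself was at 138, 147, 136 and 97.2 CPM on day 1 and 120, 143, 113 and 116 CPM later, overlapping ranges that did not pass (-0.24 ± 0.11, adjusted p = 0.103). The cytosolic ribosomal proteins had the opposite sign: 41 of 76 rose and 0 fell (median 0.5), with RPS27 at 229, 221, 176 and 277 CPM on day 1 and 567, 442, 325 and 352 CPM later. That count was 9, 8 and 5 when day 1 replicate 1, 2 or 3 was left out as well and 15 without later replicate 2, while the median stayed between 0.38 and 0.59 in those fits that left out a library. With all 8 libraries 4 passed. The mean of the list was 8.72, 8.74, 8.47 and 8.68 log2 CPM on day 1 and 9.5, 9.39, 8.87 and 8.88 later. The rise was thus largest in later replicates 1 and 2, with later replicates 3 and 4 little above day 1.

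The p53 targets were called in shares close to those of all genes. Of 20 tested 4 rose and 5 fell with 7 libraries (median -0.05), against 21.2% higher and 21% lower over all genes, and 0 rose and 2 fell with 8. Without day 1 replicate 1 or 2 as well, 1 rose and 4 fell. CDKN1A, which encodes the inhibitor p21, was at 94.7, 90.5, 76.9 and 71.8 CPM on day 1 and 85.1, 106, 69.9 and 76 CPM later (adjusted p = 0.603). GDF15, a stress cytokine on the same list, was at 178, 177, 213 and 36.6 CPM on day 1 and 37.5, 66.5, 41.9 and 45.1 CPM later, a fall of 2.04 ± 0.18 (adjusted p = 0.000109 with 7 libraries and 0.0489 with 8). CCNE1, the cyclin of S-phase entry, fell by 1.03 (adjusted p = 0.000411 with 7 libraries and 0.0485 with 8), and CDKN1C, the inhibitor p57, rose by 1.49 ± 0.2 (adjusted p = 0.000511 and 0.0542).

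Among the genes that rose, those of the TGF-beta and BMP response stood at the highest median of the lists with over 10 tested members. Of 15 tested, 12 rose and 1 fell (7 libraries, median 1.53). None passed with 8 libraries, where the median was 1.03 and 2 of the genes named next, ID1 and ID3, were at adjusted p = 0.0571 and 0.0544. BAMBI, a decoy receptor that dampens the signal (ENSG00000095739, chr10:28966439-28971861, plus strand), was at 30.1, 33.8 and 33.1 CPM in day 1 replicates 1 to 3, at 164 CPM in replicate 4, and at 154, 160, 169 and 172 CPM in the later replicates. Replicate 4 was within the later range, and the fold change turned on it: 2.3 ± 0.11 on the log2 scale without it (adjusted p = 1.21e-05) and 1.29 with it (adjusted p = 0.0969). ID1 and ID3, inhibitors of helix-loop-helix factors and direct BMP targets, rose by 1.52 ± 0.11 and 1.4 ± 0.1. SMAD7, an inhibitory Smad, rose by 1.53 ± 0.14 (adjusted p = 0.000109 with 7 libraries and 0.0735 with 8), from 21.5, 23 and 20.3 CPM to 70, 52.3, 70.2 and 66.4 CPM, with 62.2 CPM in day 1 replicate 4. TGFBI, an extracellular matrix protein named for its induction, was at 2.08, 2.29, 4.14 and 23.4 CPM on day 1 and 30.7, 26, 26.1 and 30.9 CPM later (adjusted p = 0.0862 with 8 libraries).

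Wnt targets and crypt genes were higher as well, with 12 of 20 up and 2 down (7 libraries, median 0.52; 1 up with 8 libraries, CD44). NOTUM, a secreted Wnt deacylase (ENSG00000185269, chr17:79910383-79919716, minus strand), was at 17.9, 19.3, 17 and 68.6 CPM on day 1 and 96.3, 76.6, 85.4 and 89.3 CPM later. All 4 later libraries were above all day 1 libraries (2.22 ± 0.12, adjusted p = 2.51e-05 with 7 libraries and 0.0553 with 8). AXIN2, the feedback scaffold of the pathway, was at 391, 408, 397 and 964 CPM on day 1 and 919, 860, 1020 and 962 CPM later, a rise of 1.19 ± 0.11 (adjusted p = 0.0856 with 8 libraries). APCDD1, a membrane inhibitor of Wnt, rose by 3.12 ± 0.34 (adjusted p = 0.000237), and ASCL2, a crypt stem cell factor, by 1.38 ± 0.12 (adjusted p = 0.000109). With 8 libraries they were at adjusted p = 0.214 and 0.0586. The surface proteins CD44 and PTK7 rose by 1.53 ± 0.23 and 0.49 ± 0.11 (adjusted p = 0.0488 and 0.102 with 8 libraries). The stem cell receptor gene LGR5 went the other way, at 1.01, 1.32, 1.62 and 1.06 CPM on day 1 and 0.227, 0.288, 0.443 and 0.848 CPM later (-1.56 ± 0.42, adjusted p = 0.0149 with 7 libraries and 0.0544 with 8). At these levels each value rests on few counts. GLI1, a Hedgehog target, did not pass (adjusted p = 0.199).

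Genes of enterocytes and of epithelial identity were higher too, and too few secretory markers could be tested to set beside them. CDX2, the transcription factor of intestinal identity (ENSG00000165556, chr13:28535055-28543452, minus strand), was at 82.7, 84.1 and 85.3 CPM in day 1 replicates 1 to 3, at 324 CPM in replicate 4 and at 399, 335, 369 and 372 CPM later. The rise was 2.09 ± 0.11 on the log2 scale, or 4.25-fold, with 7 libraries (adjusted p = 2.15e-05), and 2.5-fold with 8 (adjusted p = 0.065). Of 9 enterocyte markers tested 8 rose with 7 libraries (median 1.64) and 0 with 8 (median 0.96). A marker low on day 1 could enter that test through the later libraries alone, which favoured a rise. Under a filter that asked for 10 counts in every library 6 were tested and 5 rose (median 1.31). MUC13, a membrane mucin, was at 15.7, 17.1, 17.9 and 69.2 CPM on day 1 and 49.7, 51, 76.9 and 68.3 CPM later. VIL1, the microvillus protein villin, rose by 0.97 ± 0.13 (adjusted p = 0.00046) and CDH1, E-cadherin, by 1.17 ± 0.13 (adjusted p = 0.000234). With 8 libraries MUC13, VIL1 and CDH1 were at adjusted p = 0.133, 0.0909 and 0.0612. KRT20, a keratin of the differentiated surface, was at 0.238, 0.485, 0.582 and 2.01 CPM on day 1 and at 1.82, 2.23, 2.91 and 2.4 CPM later, so its rise of 2.38 ± 0.35 (adjusted p = 0.000843 with 7 libraries and 0.0843 with 8) was between low levels. It reached the count minimum only through libraries where it was higher, so the filter favoured its rise. Of 20 goblet and secretory markers 3 could be tested with 7 libraries, and 0 rose and 2 fell. These were SPINK4, a goblet cell protease inhibitor (-1.5 ± 0.36, adjusted p = 0.00788), and TPH1, the serotonin synthesis enzyme of enteroendocrine cells (-2.32 ± 0.43, adjusted p = 0.00264). Both were low, SPINK4 at 0.952, 0.97, 0.712 and 0.296 CPM on day 1 and 0.227, 0.36, 0.38 and 0.283 CPM later. Neither reached the count minimum with 8 libraries or without day 1 replicate 1, 2 or 3. They thus entered the test only through day 1 replicates 1 to 3, where they were high, so the filter favoured a fall. With 10 counts asked of every library 1 marker was tested and 0 passed (log2 fold change -0.03). MUC2, the goblet mucin, was at most 0.0757 CPM in the 8 libraries and was not tested.

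Genes at the cell surface and of the lysosome followed. Of 26 tested integrins, laminins and matrix genes 15 rose and 2 fell, of 12 Notch genes 6 rose, and of 28 lysosome and autophagy genes 16 rose and 2 fell (7 libraries, medians 0.66, 0.6 and 0.41). With 8 libraries 0, 1 and 0 rose. LAMB3, a laminin chain of the epithelial basement membrane, was at 35.6, 37.5, 38.8 and 136 CPM on day 1 and 180, 130, 162 and 156 CPM later (2.03 ± 0.13, adjusted p = 4.59e-05 with 7 libraries and 0.0628 with 8). NOTCH3, a Notch receptor, was at 27.4, 26.5, 28.6 and 64 CPM on day 1 and 92.1, 74.7, 81.5 and 78.1 CPM later, with no overlap of the groups, and passed in both fits (1.52 ± 0.11, adjusted p = 4.95e-05; 1.12, adjusted p = 0.0463). HES1, the Notch target, rose by 1.13 ± 0.13 (adjusted p = 0.0544 with 8 libraries). NOTCH1 did not pass (adjusted p = 0.755). PSAP, the precursor of the saposins, rose from 443, 476 and 515 CPM to 1270, 1170, 1250 and 1170 CPM, with 1080 CPM in day 1 replicate 4 (1.3 ± 0.12, adjusted p = 0.000109 with 7 libraries and 0.0565 with 8). Of 19 FOXO and insulin-PI3K genes 11 rose and 0 fell with 7 libraries, 7 rose without day 1 replicate 1 or replicate 2 as well, and 0 rose with 8 libraries. SESN3, a FOXO target that restrains growth signals, rose by 1.91 ± 0.24, and BMF, a pro-apoptotic BCL2 relative, by 2.3 ± 0.25 (adjusted p = 0.0696 and 0.0738 with 8 libraries).

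**Figure D2:**
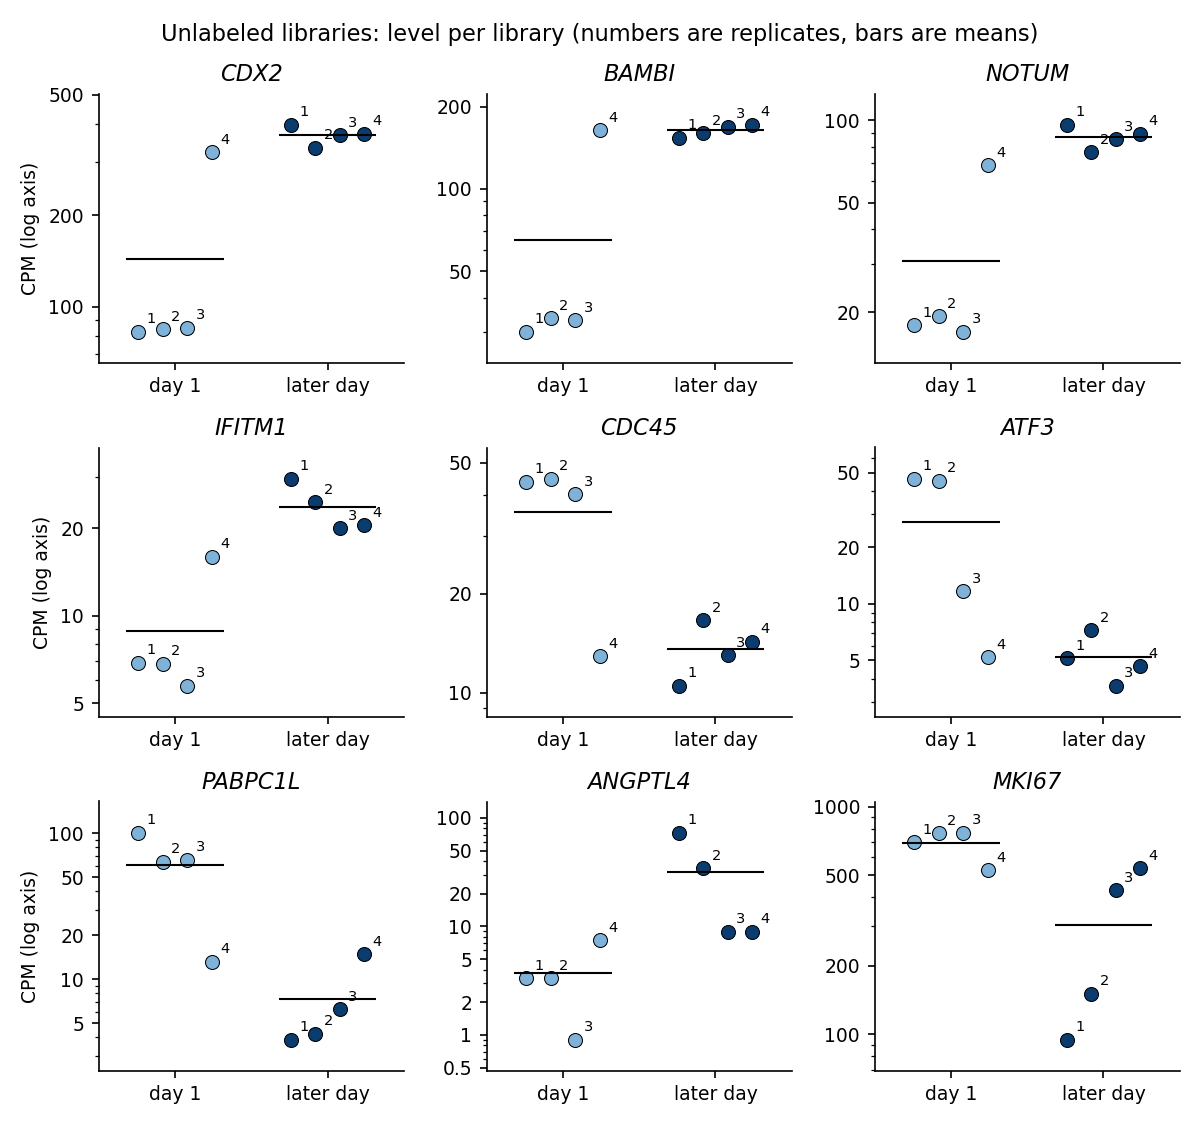
CPM on a log axis of 9 genes in the 8 unlabeled libraries, with 1 point per library, the replicate number beside it and a bar at the mean of each group of 4. For CDX2, BAMBI and NOTUM day 1 replicate 4 (324, 164 and 68.6 CPM) stands with the later libraries, and for ANGPTL4 and MKI67 later replicates 1 and 2 stand apart from 3 and 4.

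Interferon-stimulated genes, which act against viruses, rose in 17 of 27 tested and fell in 1 (7 libraries, median 0.83). Under a filter that asked for 10 counts in every library 13 of 23 rose and 2 fell, and the median was 0.39. With 8 libraries 5 rose (median 0.56): IFI6, IFITM1, IFITM2, IFITM3 and LGALS3BP. IFITM1, a membrane protein that blocks virus entry, was at 6.9, 6.86, 5.76 and 16 CPM on day 1 and 29.7, 24.6, 20.1 and 20.5 CPM later. The groups did not overlap (1.81 ± 0.18, adjusted p = 0.000148 with 7 libraries; 1.37, adjusted p = 0.046 with 8). IFIT1, which binds foreign RNA caps, was at 1.73, 1.59, 1.49 and 7.16 CPM on day 1 and 7.19, 6.19, 7.85 and 6.64 CPM later, so day 1 replicate 4 was within the later range (adjusted p = 0.106 with 8 libraries). IFI6, a mitochondrial antiapoptotic protein, rose by 1.9 ± 0.22 (adjusted p = 0.000268 with 7 libraries and 0.0471 with 8). OAS3, an RNA sensor, was the member that fell among the 27 (-0.61, adjusted p = 0.0219 with 7 libraries and 0.0985 with 8). Of 15 genes of MHC class I presentation 7 rose and 2 fell with 7 libraries, 4 rose without day 1 replicate 1 or 2 as well, and 1 rose and 0 fell with 8 libraries. HLA-B was at 92.1, 93.2, 84.6 and 200 CPM on day 1 and 256, 239, 230 and 228 CPM later (1.36 ± 0.1, adjusted p = 4.95e-05 with 7 libraries and 0.0483 with 8).

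The promoters of 4 lists whose regulators have well-known letters, the interferon-stimulated, G2/M, S-phase and cholesterol genes, were read for them in the 250 bases before each gene's start (RefSeq, GRCh38.p14, either strand). Of 23 interferon-stimulated genes with a promoter in the tables, 15 (65.2%) held GAAA, 2 bases of any kind and GAAA again, the core of the interferon-stimulated response element, against 3.07% of all 27305 promoters. Of the 14 of these genes that were called with 7 libraries, 10 held it. The 150 bases before the start of 3 genes that rose and held this core there are printed, with matches on either strand in capitals.
IFIT1 (chr10:89392473-89392622, plus strand): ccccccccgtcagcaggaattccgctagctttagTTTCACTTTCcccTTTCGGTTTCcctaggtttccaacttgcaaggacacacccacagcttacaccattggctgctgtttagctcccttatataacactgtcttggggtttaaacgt
IFITM1 (chr11:313890-314039, plus strand): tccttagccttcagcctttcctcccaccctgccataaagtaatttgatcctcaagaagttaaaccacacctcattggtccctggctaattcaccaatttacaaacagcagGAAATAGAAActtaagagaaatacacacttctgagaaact
IFI6 (chr1:27672193-27672342, minus strand): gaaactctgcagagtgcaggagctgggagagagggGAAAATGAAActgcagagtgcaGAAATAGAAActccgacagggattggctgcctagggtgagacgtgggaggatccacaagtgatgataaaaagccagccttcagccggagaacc
Of 45 G2/M genes, 24 (53.3%) held TTTGAA, the core of the cell cycle homology region, and 31 (68.9%) held CCAAT, bound by NF-Y, against 13.6% and 33.0% of all promoters. Of the 32 among them that fell with 7 libraries, 15 held TTTGAA and 22 held CCAAT, shares not above those of the whole list. The E2F letters TTTGGCGC or TTTCGCGC were in 7 of 32 S-phase promoters (21.9%) and in 0.996% of all. The sterol regulatory element, matched letter for letter, was in 1 of 18 promoters of the cholesterol list (5.6%) and in 0.0366% of all. The promoters of 3 G2/M genes that fell and held TTTGAA or CCAAT in the 150 bases shown are printed with these letters in capitals, on either strand.
SMC4 (chr3:160399500-160399649, plus strand): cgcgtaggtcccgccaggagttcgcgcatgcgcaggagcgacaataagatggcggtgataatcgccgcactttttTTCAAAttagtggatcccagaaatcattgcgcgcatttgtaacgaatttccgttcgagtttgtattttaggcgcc
HJURP (chr2:233854536-233854685, minus strand): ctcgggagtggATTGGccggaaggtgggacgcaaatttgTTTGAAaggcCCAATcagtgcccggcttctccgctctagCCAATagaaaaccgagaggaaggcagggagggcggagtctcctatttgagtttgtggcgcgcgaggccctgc
KIF23 (chr15:69414199-69414348, plus strand): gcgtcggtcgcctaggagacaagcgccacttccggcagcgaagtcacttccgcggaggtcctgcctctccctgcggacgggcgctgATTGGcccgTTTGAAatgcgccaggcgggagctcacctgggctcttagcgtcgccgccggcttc
A match is a description of the letters and was not tested as a site in these cells.

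Genes of the ATF4 response, immediate early genes and ERK feedback targets were lower at the later day, but not stress genes of every list. Of 24 genes of endoplasmic reticulum folding 4 rose and 5 fell with 7 libraries (median 0.07). Of 16 cytosolic chaperones 1 rose and 4 fell (median -0.18). The shares that fell were close to the 21% over all genes, and with 8 libraries 0 passed in either list. Of 33 genes of the ATF4 amino acid response 16 fell and 1 rose (7 libraries, median -0.43; 3 fell with 8), of 23 immediate early genes 13 fell and 2 rose (median -0.75; 1 fell with 8), and of 15 ERK feedback targets 8 fell (median -0.68; 0 with 8). DDIT3, the transcription factor CHOP, was at 37.3, 35.9, 24.4 and 9.7 CPM on day 1 and 10.4, 9.07, 9.5 and 10.4 CPM later (-1.77 ± 0.16, adjusted p = 0.00012 with 7 libraries and 0.0463 with 8). ATF3, a stress-induced factor, was at 46.6, 45.4, 11.7 and 5.21 CPM on day 1 and 5.15, 7.27, 3.67 and 4.66 CPM later. Day 1 replicate 3 was thus nearer to the later day than replicates 1 and 2 were. EGR1, an immediate early gene, showed a like order, at 476, 429, 226 and 70.6 CPM on day 1 and 89.3, 122, 64.3 and 80.7 CPM later (-2.13 ± 0.26, adjusted p = 0.000362 with 7 libraries and 0.0525 with 8). SLC7A11, the cystine transporter, fell by 1.38 ± 0.18 and DUSP6, the ERK phosphatase, by 0.77 ± 0.18 (adjusted p = 0.0471 and 0.13 with 8 libraries).

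The hypoxia and glycolysis genes separated the later libraries from each other. Of 40 tested members 38 had their highest level of the 8 libraries in later replicate 1 and the other 2 in later replicate 2. The mean log2 CPM of the list was 6.42 to 6.48 in day 1 replicates 1 to 3 and 6.15 in replicate 4, and 7.83, 7.14, 6.25 and 6.2 in later replicates 1 to 4. P4HA1, a prolyl hydroxylase of collagen, was at 91.8, 89.6, 109 and 104 CPM on day 1 and 669, 232, 113 and 93.8 CPM later. CA9, carbonic anhydrase IX and a target of HIF, was at 17.8, 15.8, 14.8 and 18.6 CPM on day 1 and 99.9, 56.3, 20.5 and 19.7 CPM later. Later replicates 3 and 4 were thus within or close to the day 1 range for both. By the test 7 of 40 rose with 7 libraries and 1 with 8. The count moved with single libraries: 1, 2 and 2 rose without day 1 replicate 1, 2 or 3, 6 rose and 2 fell without later replicate 1 (median 0.11 in place of 0.37), and 4, 12 and 18 rose without later replicate 2, 3 or 4. With all 8 libraries the median was 0.4, and it was -0.14 in limma voom with sample weights, which gave later replicate 1 a weight of 0.283 and later replicate 3 a weight of 3.88. ANGPTL4, a secreted inhibitor of lipoprotein lipase and a HIF target, headed the genes that rose in both fits, at 3.33, 3.33, 0.906 and 7.45 CPM on day 1 and 73.2, 34.5, 8.93 and 8.97 CPM later (3.58 ± 0.82, adjusted p = 0.00679 with 7 libraries; 3.01, adjusted p = 0.0476 with 8). The same 2 libraries had the lowest MKI67 levels, but the cell cycle lists did not share that order. In later replicates 1 to 4 the S-phase mean was 5.49, 5.88, 5.64 and 5.57 log2 CPM. The G2/M mean was 6.22, 6.54, 6.39 and 6.32. Later replicate 1 was thus the lowest of the later libraries on both lists and later replicate 2 the highest. The 13 mitochondrially encoded genes had means of 10.85 to 10.92 log2 CPM in day 1 replicates 1 to 3, 10.18 in replicate 4, and 11.43, 10.71, 10.08 and 10.15 later. Without later replicate 1, 5988 of 14010 genes were called between the days in the remaining 6 libraries.

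The other protein-coding genes with the largest increase that passed in both fits included CLIC3, a chloride channel relative (8.51, 7.97, 14 and 37.3 CPM on day 1; 99.5, 59.2, 48.1 and 50.2 CPM later), the linker histone gene H1-2 (1.84 ± 0.17), TNNT1, a troponin of slow muscle (2.32 ± 0.4), MRC2, a collagen receptor (1.47 ± 0.11), SRRM3, a splicing factor (1.35 ± 0.31) and SEMA6B, a semaphorin (1.32 ± 0.19). Of 14 polyadenylated and linker histones 8 rose and 0 fell with 7 libraries, and 1 rose with 8.

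The largest decreases that passed in both fits were of another kind, with ATF3 as the exception. PABPC1L, a poly(A)-binding protein known from oocytes (ENSG00000101104, chr20:43538701-43587676, plus strand), was at 101, 63.8, 66 and 13.2 CPM on day 1 and 3.86, 4.25, 6.27 and 14.8 CPM later (-3.44 ± 0.4, adjusted p = 0.000294 with 7 libraries; -3.11, adjusted p = 0.046 with 8). Day 1 replicate 4 was below later replicate 4. SEC31B, a COPII coat gene, fell by 3.3 ± 0.47, IZUMO1, a sperm fusion protein, by 3.26 ± 0.37, and RASIP1, an endothelial Ras-binding protein, by 3.17 ± 0.42. PGGHG, a glucosidase of collagen sugars, was at 486, 267, 296 and 67.2 CPM on day 1 and 20.1, 23.7, 39.5 and 77.3 CPM later. RNF207, MAMDC4, TTLL3, CCDC150, HSF4 and BRICD5 fell by 2.86 to 3.1. These genes moved with the share of reads outside annotated genes given above, which was highest in day 1 replicates 1 to 3. Long noncoding RNAs did so as well, with 72 of 791 higher and 240 lower (median -0.32) against 2809 and 2433 of 12302 protein-coding genes (median 0.04, 7 libraries). With 8 libraries the counts were 1 higher and 55 lower of 730 long noncoding RNAs and 113 and 489 of 12207 protein-coding genes. The part of that share in these results was not tested. The labels do not say whether the counting used strand, so reads of overlapping antisense genes cannot be told apart.

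**Figure D3:**
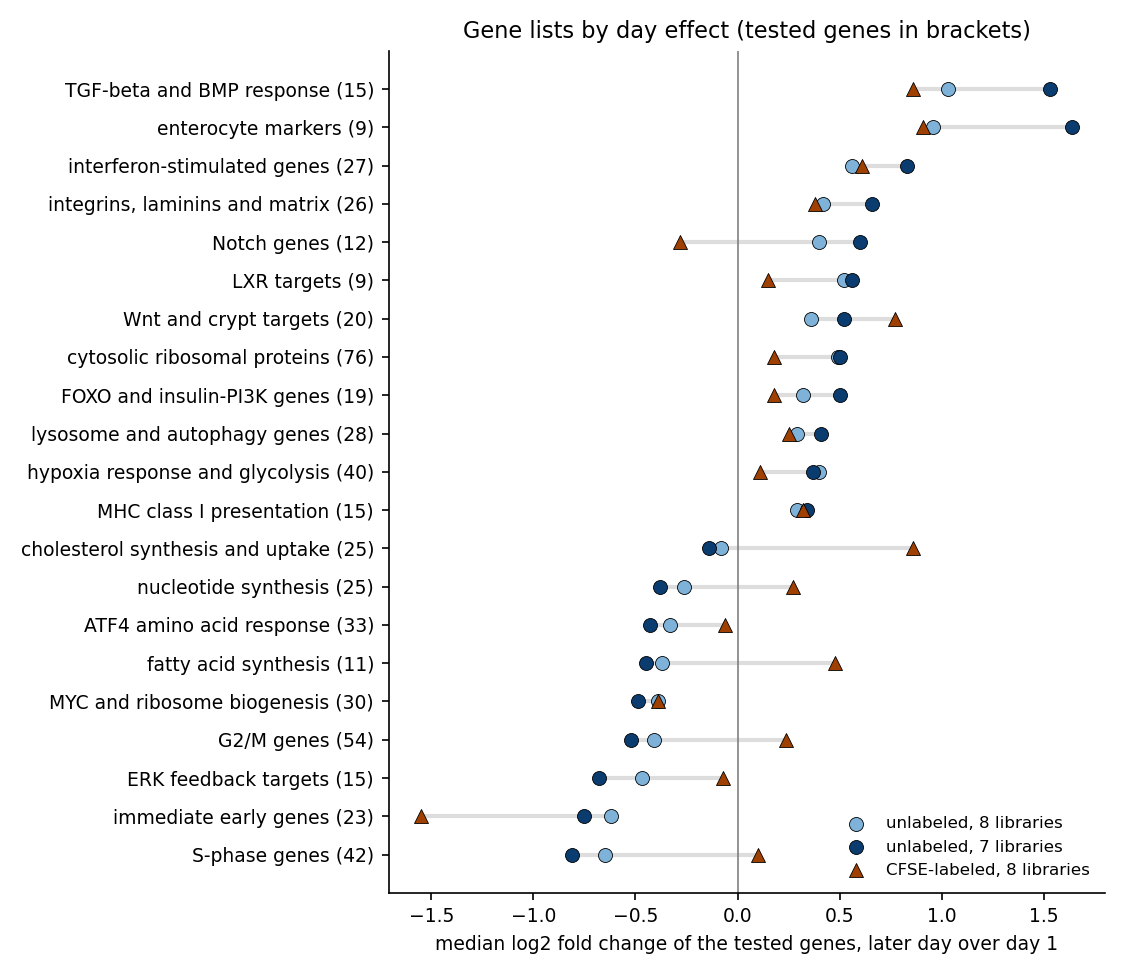
Median log2 fold change, later day over day 1, of the tested genes of 21 lists in the unlabeled cells with 8 libraries (light circles) and 7 libraries (dark circles) and in the CFSE-labeled cells (triangles), with the number of genes tested in 7 libraries in brackets. Leaving out day 1 replicate 4 moves most circles away from 0, and the S-phase, G2/M, nucleotide, cholesterol, fatty acid and Notch lists lie on opposite sides of 0 in the 2 arms. In CFSE-labeled cells the Notch mean was 4.81 log2 CPM in day 1 replicates 1 and 2 and 3.99 to 4.1 later. It was 4.01 and 3.88 in the other day 1 libraries, so the fall of this mean rested on replicates 1 and 2. The nucleotide mean there was 6.47, 6.53, 6.71 and 6.76 on day 1 and 7, 7.01, 6.71 and 6.73 later. Only later replicates 1 and 2 were thus above day 1.

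The nearest comparison in the series is the same contrast of days in CFSE-labeled cells, which shares no library with the unlabeled one. There 5716 of 13749 genes were called (41.6%), 2848 higher (20.7%) and 2868 lower (20.9%). Without TMM scaling the split was 2057 higher and 3464 lower. Of the 5958 genes called in the 7 unlabeled libraries 3326 were called in the CFSE-labeled cells too, 55.8% of the first list and 58.2% of the second. Of those, 1534 were higher in both, 1656 lower in both and 136 opposite. The TGF-beta and BMP response (10 of 16 up, median 0.86), the Wnt and crypt targets (14 of 19 up, median 0.77), the interferon-stimulated genes (16 of 26 up, median 0.61), the ribosome biogenesis genes (15 of 30 down, median -0.39) and the immediate early genes (15 of 23 down, median -1.55) had the same sign in both arms. CFSE-labeled day 1 replicates 1 and 2 stood apart from replicates 3 and 4, at 36 and 45.3 against -14.3 and -11.3 on the second component of the 16 libraries. Later replicates 1 to 4 had a like order, at 36, 40.3, -6.7 and 6.2 in CFSE-labeled and 13.7, 16.2, -11.3 and -29.2 in unlabeled cells. Unlabeled day 1 did not (-33, -27.1, -35.5 and -25.3). What sets these replicates apart was not tested. The mean log2 CPM of the immediate early genes was 7.5 and 7.4 in CFSE-labeled day 1 replicates 1 and 2 and 5.47 and 5.5 in replicates 3 and 4. It was 5.48, 5.38, 4.87 and 4.86 later, so the size of the fall there rested on day 1 replicates 1 and 2. CDX2 in CFSE-labeled cells was at 52.7, 56.9, 62.1 and 59.5 CPM on day 1 and 132, 131, 192 and 220 CPM later. PABPC1L fell there too, from 38.1, 26.2, 60.3 and 58.6 CPM to 5.93, 5.97, 14.8 and 8.64 CPM, and the reads outside genes were 12.1 to 14.8% on day 1 and 5.2 to 7.31% later.

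The difference of the day effect between the arms, tested as an interaction, was called for 145 of 14518 genes with all 16 libraries (0.999%), 22 with the higher effect in unlabeled cells (0.152%) and 123 with the lower (0.847%). Without unlabeled day 1 replicate 4 it was called for 880 of 14450 (6.09%), 237 higher (1.64%) and 643 lower (4.45%). No further library was left out of that fit, so how far its counts rest on single libraries was not tested. The count from 16 libraries rested on single libraries. It was 16 to 35 without any one of unlabeled day 1 replicates 1 to 3, unlabeled later replicates 1, 3 or 4, CFSE-labeled day 1 replicates 1 or 2 or CFSE-labeled later replicates 1, 2 or 4, it was 79 without CFSE-labeled later replicate 3, and it was 401 and 428 without CFSE-labeled day 1 replicate 3 or 4. It was 10 with the replicate number as a block. The cell cycle lists were where the arms parted. The effect was lower in unlabeled cells for 34 of 42 S-phase genes and 35 of 54 G2/M genes with 15 libraries, and for 6 and 9 with 16. In CFSE-labeled cells 12 of 42 S-phase genes rose and 2 fell, and 22 of 54 G2/M genes rose and 1 fell. Over all genes 20.7% were higher and 20.9% lower there. TOP2A, the topoisomerase of mitotic chromosomes, was at 809, 819, 852 and 668 CPM on unlabeled day 1 and 462, 647, 633 and 553 CPM later, against 507, 494, 612 and 650 CPM and 972, 996, 964 and 903 CPM in CFSE-labeled cells. The difference of its log2 fold changes was -1.22 ± 0.18 with 16 libraries (adjusted p = 0.00863). By library, the mean log2 CPM of the S-phase genes was 6.33 to 6.42 in unlabeled day 1 replicates 1 to 3. It was 5.62 in replicate 4 and 5.49 to 5.88 later. In CFSE-labeled cells it was 6.11, 6.14, 6.24 and 6.27 on day 1 and 6.54, 6.52, 6.22 and 6.21 later. The later unlabeled libraries were thus below all the others but unlabeled day 1 replicate 4. In CFSE-labeled cells only later replicates 1 and 2 were above day 1, while later replicates 3 and 4 were within its range. The G2/M mean in CFSE-labeled cells was 6.69 to 6.73 on day 1 and 6.88 to 7.04 later.

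**Figure D4:**
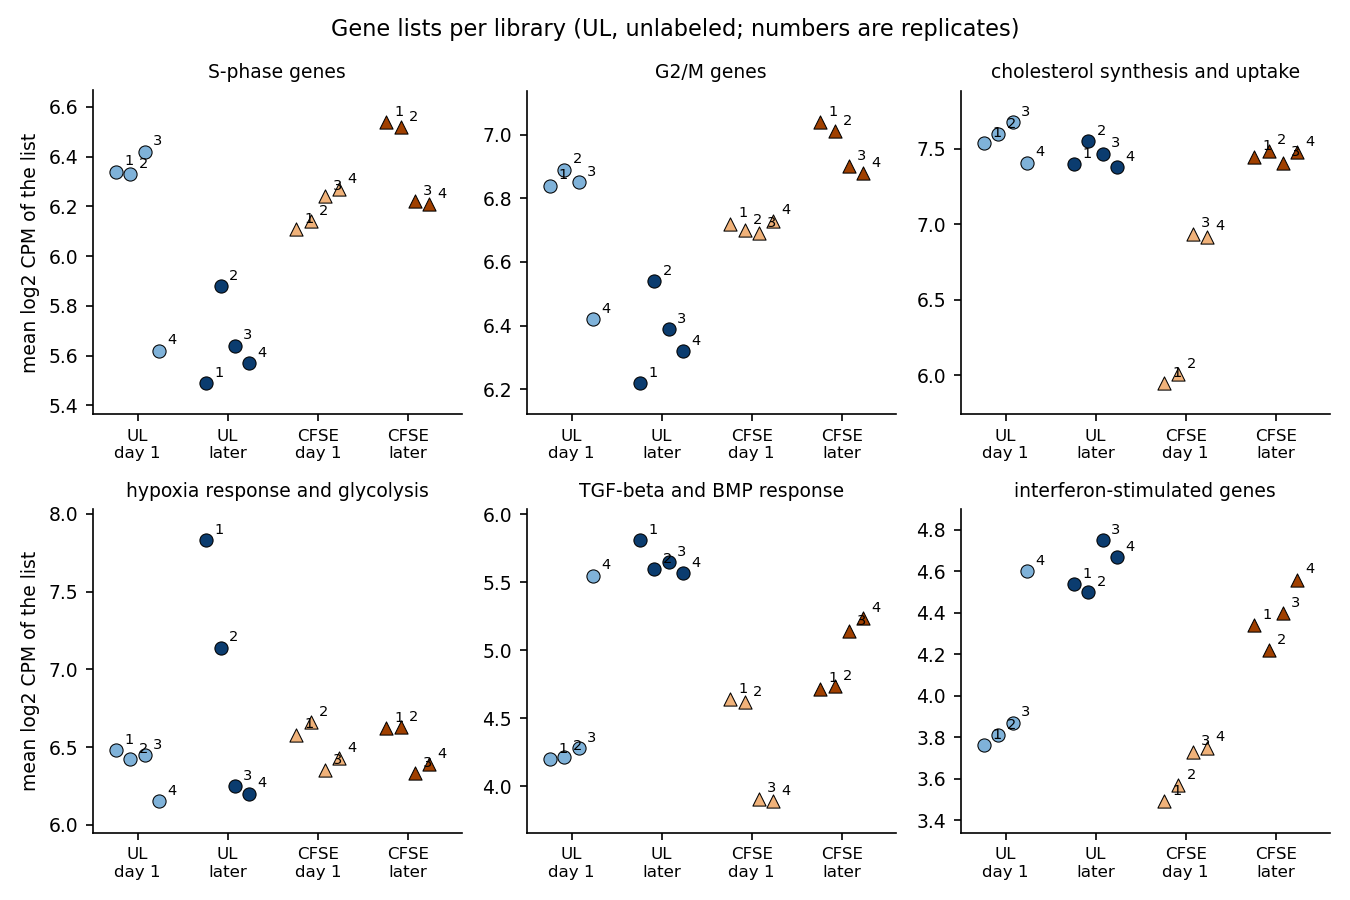
Mean log2 CPM of 6 gene lists in each of the 16 unsorted libraries (circles unlabeled, triangles CFSE-labeled, replicate number beside each point, each panel with its own axis, which does not start at 0). The S-phase mean of 5.49 to 5.88 in the later unlabeled libraries lies below that of every CFSE-labeled library, while the cholesterol list is lowest in CFSE-labeled day 1.

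For cholesterol synthesis the arms parted at day 1 instead, and for fatty acid synthesis at day 1 and, by less, at the later day. The effect was lower in unlabeled cells for 13 of 25 genes of cholesterol synthesis and uptake and 7 of 11 of fatty acid synthesis with 15 libraries (6 and 3 with 16). In unlabeled cells 7 cholesterol genes fell and 1 rose with 7 libraries (median -0.14), 1 fell and 0 rose with 8, and in CFSE-labeled cells 19 rose and 0 fell (median 0.86). The mean of the cholesterol list was 7.54 to 7.68 log2 CPM in unlabeled day 1 replicates 1 to 3, 7.41 in replicate 4 and 7.38 to 7.55 later, and 5.95, 6.01, 6.94 and 6.92 in CFSE-labeled day 1 and 7.41 to 7.49 later. The unlabeled days thus differed little, and the level of CFSE-labeled day 1 was below the rest. MVD, a decarboxylase of the pathway, fell in unlabeled cells by 1.15 ± 0.14 (adjusted p = 0.00037 with 7 libraries and 0.0537 with 8). Of the 11 fatty acid genes 6 fell and 0 rose in unlabeled cells with 7 libraries (median -0.45), and 0 passed with 8. Their mean was 7.13, 7.13, 7.21 and 6.84 log2 CPM on unlabeled day 1 and 6.69 to 6.88 later. In CFSE-labeled cells it was 6.05, 6.06, 6.69 and 6.64 on day 1 and 6.96 to 7 later.

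Other genes with a different effect in the arms were CDKN2C, a cyclin-dependent kinase inhibitor (-1.31 ± 0.17), KLK10, a secreted protease (-1.2 ± 0.17), REEP2 (-1.41 ± 0.21) and ALDH1L1, a folate enzyme (-1.15 ± 0.17), each at adjusted p = 0.00863 with 16 libraries. None of these 4 passed between the days in unlabeled cells, and each rose in CFSE-labeled cells. CDKN2C was at 18.6 to 23.3 CPM on unlabeled day 1 and 21.9 to 27.9 CPM later, and at 7.53 to 9.07 CPM and 23.2 to 27 CPM in CFSE-labeled cells. LAMB3 differed the other way (2.23 ± 0.52, adjusted p = 0.0495 with 16 libraries; 2.9 ± 0.32, adjusted p = 0.00104 with 15), since in CFSE-labeled cells it was at 212, 238, 107 and 104 CPM on day 1 and 86.9, 82.1, 89.1 and 99.3 CPM later. ANGPTL4 differed with 15 libraries (4.25, adjusted p = 0.0291), with 4.11 to 4.92 CPM in all CFSE-labeled libraries of the later day.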

How the data were processed

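RNA-seq was available for 64 samples, of which the 8 unsorted unlabeled libraries, and for comparison the 8 CFSE-labeled ones, were used here. The deposited values are raw counts of reads per Ensembl gene (54127 genes). The submitters' processing notes name TopHat, HTSeq, DESeq and hg19, without versions, and the authors sequenced single-end reads. Symbols were matched for 39260 genes (72.5%) and positions taken from GENCODE v44 lifted to hg19. The 16 libraries held 12738718 to 17160555 counts on genes, and no pair of libraries was identical. Reads in no gene, in several genes or mapped to several places were left out of library sizes. Reads in no gene made up 5.19 to 14.8% of the reads that were not mapped to several places.

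A gene was tested where 4 or more libraries (3 in the fit of 7) held 10 or more of its counts, with edgeR 4.0.16 (quasi-likelihood, TMM, R 4.3.3) and Benjamini-Hochberg adjustment at 0.05. Levels are CPM with TMM over the 16 libraries, except in the check of the cell line, where TMM was over all 64 libraries. Log2 values had a prior count of 2. The 7 libraries leave out day 1 replicate 4. The difference between arms was an interaction term over 16 or 15 libraries. A fold change is the later day over day 1, and SE is its standard error. DESeq2 1.42.0, other scalings and filters, limma 3.58.1 (voom with sample weights), a replicate block and leaving out each library were the alternatives. No further library was left out of the interaction with 15 libraries. The pipeline was first tested on simulated data.

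The comparison and the gene lists were chosen with earlier results of these data known. Genes were named by rule: the 12 largest increases and decreases among protein-coding genes averaging 2 log2 CPM or more that passed in both fits, up to 4 members of each list with the smallest p in the fit of 7 and the gene that heads it, the marker genes of the study, and the 5 genes with the smallest p for the interaction in each fit. Beyond the rule, SMAD7, IFITM3, LGALS3BP, OAS3, P4HA1 and CA9, the check of the cell line and the promoter letters were chosen after the data were seen. Of 1041 list genes 1030 were matched. UHRF1, ACACA, RPL17, DDX58, SOD2, SRXN1, TXNIP, ITGB3, FCGBP, CD24 and PECAM1 were not analysed here. A few genes that the rule names are not reported here.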

Additional observations from a re-analysis of the deposited data

Results flagged for a closer look

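Day 1 replicate 4 stood far from the other 3 unlabeled day 1 libraries by Dixon's ratio, the gap to the nearest library over the range of the group, for the first principal component (0.845). It did so for 8 named genes: NOTCH3 (0.915), MRC2 (0.846), HLA-B (0.887), IZUMO1 (0.835), CCDC150 (0.939), CDX2 (0.977), LAMB3 (0.935) and EZH2 (0.906). It did so as well for the list means of S-phase genes (0.888), G2/M genes (0.894), p53 targets (0.889), ribosome biogenesis (0.833), mitochondrially encoded genes (0.905), interferon-stimulated genes (0.869), FOXO and insulin-PI3K genes (0.981), Wnt and crypt targets (0.915), the TGF-beta and BMP response (0.941), integrins, laminins and matrix (0.903), goblet markers (0.881), colon stem markers (0.839), the BCL2 family (0.842) and nucleotide synthesis (0.976). Of 182 groups of 4 examined 27 were marked, 24 of them at day 1 and 23 of those with replicate 4 farthest. Chance marks about 1 group in 20.

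MUC2 was marked at both days, with day 1 replicate 3 (0.877) and later replicate 1 (1) farthest, at levels of at most 0.0757 CPM. The mean of the actin cytoskeleton genes was marked for later replicate 1 (0.917) and that of the epithelial-mesenchymal genes for later replicate 2 (0.857).

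The day effect differed between unlabeled and CFSE-labeled cells by the interaction test. On the log2 scale, unlabeled minus CFSE-labeled, it was -1.31 for CDKN2C, -1.2 for KLK10, -1.22 for TOP2A, -1.41 for REEP2, -1.15 for ALDH1L1, -1.09 for CCNF, -1.2 for TCF19 and 2.23 for LAMB3 with 16 libraries. With 15 libraries only, it was 4.25 for ANGPTL4, 1.22 for H1-2 and -1.03 for EZH2.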

How the results depend on the processing

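With 8 unlabeled libraries the count of genes called, 744, became 3043 with DESeq2, 2681 without a filter, 479 with at least 10 counts in every library, 3695 with all 16 unsorted libraries in 1 fit, 8998 with limma voom and sample quality weights, 476 with a log2 fold change of at least 1, and 0 to 5958 when single libraries were left out. With 7 libraries the count of 5958 became 2020 with a log2 fold change of at least 1 and 3441 to 6703 without a further library, and it was 5182 to 6746 under the other tools, scalings, filters and fits. For CFSE-labeled cells 5716 became 1792 with a log2 fold change of at least 1, and 4634 to 5744 without single libraries. The interaction count of 145 became 623 with DESeq2, 89 with DESeq2 size factors, 85 without TMM, 454 without a filter, 80 with a log2 fold change of at least 1, and 16 to 880 without single libraries. The count of 880 with 15 libraries became 1505 with DESeq2 and 420 with a log2 fold change of at least 1. The cause of these changes was not tested. With all 8 libraries no named gene that was called changed sign under these alternatives. Among the list medians over 0.2 in size with 8 libraries, that of the hypoxia list turned from 0.4 to -0.14 under voom weights and no other changed sign. With 7 libraries that of the goblet markers, over 3 genes, turned from -1.5 to 0.04 without day 1 replicate 2, where 1 gene could be tested. For the interaction with 15 libraries the goblet median turned from -0.48 to 1.56 without a filter and that of the keratins from 0.8 to -0.19 with at least 10 counts in every library. Medians of the fibroblast and endothelium markers over 2 genes changed sign with the filter too. Among the alternative values of named genes 1844 stayed on their side of the threshold, 281 passed newly and 381 no longer passed.

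With the replicate number as a block, 0 genes were called in 8 libraries by edgeR (4189 at an unadjusted p under 0.05), 6500 in 7, 6275 in CFSE-labeled cells, 10 for the interaction with 16 libraries and 937 with 15. The numbers did not pair the unlabeled libraries: deviations from the group means correlated across genes between same-numbered libraries at -0.254, 0.178, 0.01 and -0.273, and without day 1 replicate 4 at -0.129, 0.174 and 0.07, and the libraries did not each correlate best with their own number. Depth limits the genes near 1 CPM, such as LGR5 and KRT20, where a library holds few counts.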
